A study of Mus musculus with 4 samples.

Results

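The genes described here encode the receptors of insulin and insulin-like growth factors (IGFs), the docking proteins those receptors phosphorylate, and the secreted proteins that bind IGFs. They are the receptor genes Igf1r and Insr, the docking protein genes Irs1 and Irs2, and 6 binding protein genes (Igfbp2, Igfbp3, Igfbp4, Igfbp5, Igfbp6 and Igfbp7). All 10 were found by symbol among the 48432 identifiers of the deposited table, and 7 of them had enough fragments to be tested.

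The IGF and insulin receptors are related tyrosine kinases. When IGF or insulin binds, they phosphorylate IRS proteins, which recruit PI3 kinase and so activate AKT and mTOR, while FOXO transcription factors are kept out of the nucleus. The secreted binding proteins hold IGFs in the extracellular space, where they can withhold the ligand from the receptor or deliver it after proteases cleave them. In the mammary gland this system is known for supporting the growth and survival of epithelial cells, and Igfbp5 is known for its rise when the gland involutes after weaning.

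The RNA came from D2.OR, a line of mouse mammary cells given as pre-malignant and hyperplastic alveolar, after 7 days in 3D culture. The 2 parental libraries were compared with 2 libraries from D2.OR cells expressing BORG, a long non-coding RNA. Both groups were grown in medium with 10% serum, which itself carries IGFs and binding proteins, and 5% Cultrex, a basement membrane extract. The table calls the parental condition Empty, and whether those cells carried an empty vector is not given in the sources used here; the promoter that drove BORG and the number of clones are not given either.

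The fragments assigned to genes were 24176438 and 30322679 in the parental libraries and 7900767 and 27131662 in the BORG-expressing ones. No identifier matched BORG by name, so the labels were not checked against it. The summed level of 7 epithelial markers was 1070 to 1150 FPKM (fragments scaled to transcript length and library size) in parental libraries. In BORG-expressing libraries it was 965 to 1490 FPKM. Nearly all of this sum came from the keratin genes Krt8, Krt14 and Krt18. Krt14 was 2.55-fold and Krt8 1.21-fold higher in BORG-expressing cells, while Krt18 was 1.62-fold higher in parental cells. The other epithelial markers were low. Epcam and Cdh1 averaged 0.904 and 0.917 FPKM in parental and 1.18 and 2.06 FPKM in BORG-expressing libraries. Krt19 averaged 0.0351 FPKM in parental and 0.438 FPKM in BORG-expressing libraries, and Krt5 was listed at 0 in both parental libraries. Of 8 fibroblast markers, 3 averaged at least 1 FPKM, and the list summed to 108 to 113 FPKM in parental and 80.3 to 98.2 FPKM in BORG-expressing libraries. Most of that sum was Pdgfra, which averaged 88.7 FPKM in parental and 63.8 FPKM in BORG-expressing libraries. Pdgfrb was also lower (4.13 and 2.66 FPKM), while Col1a1 averaged 17.7 and 22.4 FPKM, with overlapping values. Thy1 was listed at 0 in all 4 libraries, and Col1a2, Dcn and Lum never reached 0.3 FPKM. Immune markers summed to 4.80 to 5.60 FPKM in parental and 8.03 to 10.8 FPKM in BORG-expressing libraries, nearly all of it Cd68. The leukocyte marker Ptprc went the other way, averaging 0.231 FPKM in parental and 0.0299 FPKM in BORG-expressing libraries. Endothelial markers summed to 1.40 to 1.60 FPKM in parental and 0.588 to 0.638 FPKM in BORG-expressing libraries. Of these, Kdr and Cdh5 were lower in BORG-expressing libraries, while Pecam1 was higher (0.0367 and 0.172 FPKM on average). Adipocyte markers summed to 6.24 to 8.51 FPKM in parental and 4.06 to 4.31 FPKM in BORG-expressing libraries, nearly all of it Fabp4.

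The question the design poses is how these genes differ when BORG is expressed. Both receptor genes and Irs2 rose in BORG-expressing cells, and the 3 binding protein genes that could be tested, Igfbp4, Igfbp5 and Igfbp6, fell. Irs1 did not pass. Thus 6 of 7 tested members passed edgeR's quasi-likelihood test at an adjusted p of 0.05, 3 in each direction, in a comparison where 41.1% of 15116 tested genes passed (19.9% higher and 21.3% lower). The median log2 fold change was 0.23 over the 7 tested members and 0.02 over all tested genes. In all 7 the CPM (fragments scaled to library size with TMM factors, not to length) of the groups did not overlap, as was so for 72.6% of tested genes. In bulk RNA, fewer cells of a type and less RNA per cell cannot be told apart.

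**Figure D1:**
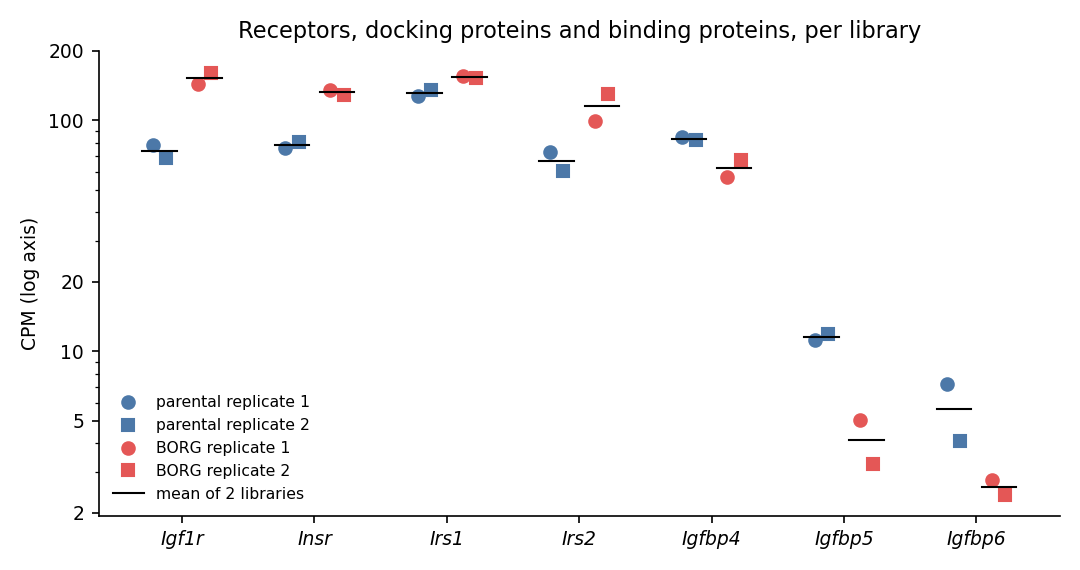
CPM on a log axis of the 7 tested members in each of the 4 libraries (points) with the mean of each group (lines). Igf1r, Insr and Irs2 sit higher in both BORG-expressing libraries than in either parental library, and Igfbp4, Igfbp5 and Igfbp6 sit lower.

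Igf1r encodes the type 1 IGF receptor. Its level was 78.4 and 68.8 CPM in parental libraries and 144 and 160 CPM in BORG-expressing libraries. Every BORG-expressing value was above every parental value, and the gap between groups was wider than the gap within either. The log2 fold change was 1.05 ± 0.12 (SE, edgeR adjusted p = 0.00129, n = 2 per group), a 2.07-fold rise. Per length, its level rose from 5.47 ± 0.434 to 11.1 ± 0.0804 FPKM (SD, n = 2). Igf1r lies on chromosome 7 at 67952827 to 68233668 on the plus strand of GRCm38, with 21 separate exon blocks, and no other annotated gene overlaps it.

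Insr, the insulin receptor gene, had 75.7 and 80.3 CPM in parental libraries and 135 and 129 CPM in BORG-expressing libraries. The groups again did not overlap. It rose 1.69-fold, a log2 fold change of 0.76 ± 0.11 (adjusted p = 0.00254). Insr lies on chromosome 8 at 3122061 to 3279617 on the minus strand, and the genes Vmn2r-ps88 and Gm16180 overlap it on the opposite strand.

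The receptors were at similar levels per length. Insr made up 53.2% and 58.8% of the summed Insr and Igf1r FPKM in parental libraries and 49.6% and 50.3% in BORG-expressing libraries. The mean share was 56.0% ± 3.96 in parental and 50.0% ± 0.505 in BORG-expressing cells (SD, n = 2), an exact two-sided permutation p of 0.333, which is the smallest that 2 against 2 libraries allow. With CPM over a fixed length per gene the Insr share was 53.2% and 57.8% in parental and 52.4% and 48.6% in BORG-expressing libraries. The summed Insr and Igf1r level was 12.3 and 12.5 FPKM in parental libraries and 22.0 and 22.5 FPKM in BORG-expressing libraries, 1.79 times as high (exact permutation p = 0.333).

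Irs2 encodes a docking protein that links both receptors to PI3 kinase. Its level was 73.0 and 60.1 CPM in parental libraries and 99.6 and 130 CPM in BORG-expressing libraries. The groups did not overlap, but the BORG-expressing libraries were further apart from each other than for the receptors. Its log2 fold change was 0.80 ± 0.17 (adjusted p = 0.0118), or 1.74-fold. Irs2 lies on chromosome 8 at 10984681 to 11008458 on the minus strand, overlapped on the opposite strand by 9530052E02Rik.

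Irs1, its close relative, had 128 and 135 CPM in parental libraries and 155 and 152 CPM in BORG-expressing libraries. Its log2 fold change of 0.23 ± 0.10 did not pass (adjusted p = 0.120), although the values of the groups did not overlap. Of the summed Irs1 and Irs2 FPKM, Irs1 held 53.4% and 60.5% in parental libraries and 44.0% and 46.0% in BORG-expressing libraries (exact permutation p = 0.333). Irs1 was thus the higher of the pair in each parental library and the lower in each BORG-expressing library in FPKM, but with CPM over a fixed length per gene it still held 51.0% in BORG-expressing replicate 1. Irs1 lies on chromosome 1 at 82233101 to 82291416 on the minus strand, with Gm9747 on the opposite strand.

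The calls of Igf1r, Insr and Irs2 were lost in the limma fit to log2(FPKM + 1) without a filter on low values (adjusted p = 0.0519, 0.117 and 0.0934), a fit in which 1425 of 24860 genes passed. Their log2 fold changes on that scale were 0.91, 0.61 and 0.81. The call of Insr was also lost in limma on log2(FPKM + 1) with the filter (adjusted p = 0.0516).

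Promoter windows are shown for the members that rose or fell together, since members moving in one direction can be compared in what lies before their starts. RefSeq windows on GRCm38.p6 were found for 9 of 10 members, all but Insr. Each is given here as the 250 bases before the RefSeq start, 5′ to 3′ on the gene's strand. The 5 motifs searched, on both strands, were the FOXO site GTAAACA, the E-box CACGTG, the GC box GGGCGG, the TATA box TATAAA and the cAMP response element TGACGTCA. Of 32851 windows of all genes, 3.17% hold the FOXO site, 6.02% the E-box, 32.7% the GC box, 12.4% the TATA box and 1.55% the cAMP response element. Capitals mark matches, and no matches overlapped in the windows printed. The members that rose and have a window are these:
Igf1r (chr7:67952007-67952256, plus strand): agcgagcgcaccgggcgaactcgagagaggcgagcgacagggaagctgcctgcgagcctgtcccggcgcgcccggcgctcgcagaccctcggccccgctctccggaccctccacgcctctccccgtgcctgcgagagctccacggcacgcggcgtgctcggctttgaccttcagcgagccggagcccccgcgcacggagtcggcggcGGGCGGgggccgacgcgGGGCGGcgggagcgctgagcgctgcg
Irs2 (chr8:11008930-11009179, minus strand): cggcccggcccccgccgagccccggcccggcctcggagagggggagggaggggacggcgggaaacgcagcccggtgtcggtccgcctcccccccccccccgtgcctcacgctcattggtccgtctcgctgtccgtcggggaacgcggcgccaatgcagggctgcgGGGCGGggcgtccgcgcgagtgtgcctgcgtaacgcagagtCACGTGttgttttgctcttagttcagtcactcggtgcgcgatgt

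The Igf1r window holds 2 GC boxes, which begin 43 and 26 bases before the start, and no TATA box. Its GC content is 77.6%, higher than 97.6% of all windows. In the Irs2 window, a GC box begins 85 bases and an E-box 44 bases before the start, and the GC content is 72.8%. The median of all windows is 52.4%. Neither window holds these letters of the FOXO site. A match is a description of letters, not evidence of binding, and in both genes the RefSeq start lies upstream of the GENCODE start.

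Binding protein transcripts moved the other way. Igfbp4 encodes the binding protein that the protease PAPP-A cleaves to release IGF, and it was the most abundant of all members per length, at 36.2 and 28.6 FPKM in parental and 24.7 and 20.3 FPKM in BORG-expressing libraries. In CPM it was at 84.9 and 81.9 in parental and at 57.1 and 67.3 in BORG-expressing libraries. It fell by 0.42 ± 0.12 on the log2 scale (adjusted p = 0.0338), with 1.34-fold more in parental cells. This was the smallest change among the members that passed. Igfbp4 lies on chromosome 11 at 99041244 to 99054392 on the plus strand.

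Igfbp5, a binding protein gene that is known to be active in the involuting mammary gland, had 266 and 360 fragments in parental libraries and 40 and 89 in BORG-expressing libraries. Scaled to library size these are 11.2 and 11.9 CPM against 5.05 and 3.24 CPM, with no overlap. It fell by 1.53 ± 0.26 on the log2 scale (adjusted p = 0.00497), the largest change of the members in either direction, with 2.90-fold more in parental cells. Igfbp5 lies on chromosome 1 at 72857932 to 72874884 on the minus strand.

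Igfbp6 encodes a binding protein that prefers IGF2 over IGF1. It had 171 and 124 fragments in parental libraries and 22 and 66 in BORG-expressing libraries, or 7.19 and 4.09 CPM against 2.78 and 2.40 CPM. Parental replicate 1 stood above the other 3 libraries. It fell by 1.13 ± 0.36 on the log2 scale (adjusted p = 0.0445), the closest to the threshold of the members that passed. In FPKM the groups overlapped, at 6.11 and 3.24 in parental and 3.92 and 1.56 in BORG-expressing libraries. The FPKM given per CPM for Igfbp6 was 0.850, 0.792 and 0.647 in parental replicates 1 and 2 and BORG-expressing replicate 2, but 1.41 in BORG-expressing replicate 1, the shallowest library. Igfbp6 lies on chromosome 15 at 102144362 to 102149511 on the plus strand.

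The other 3 binding protein genes were barely or not measured. Igfbp2 had 3 and 5 fragments in parental libraries and 1 and 3 in BORG-expressing libraries. Igfbp3, whose product carries most IGF in blood, had 0 and 1 fragments in parental and 0 and 1 in BORG-expressing libraries. Igfbp7, a secreted protein of low IGF affinity, was listed at 0 in all 4 libraries. None of the 3 passed the filter on low counts, and no fold is given for them.

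Summed over all 6 binding protein genes, the level was 43.9 and 33.5 FPKM in parental libraries and 29.5 and 22.4 FPKM in BORG-expressing libraries. The mean was 38.7 ± 7.32 FPKM in parental and 25.9 ± 5.02 FPKM in BORG-expressing cells (SD, n = 2), and the exact two-sided permutation p of 0.333 is the smallest possible. Igfbp4 made up 82.6% and 85.3% of this sum in parental and 84.0% and 90.9% in BORG-expressing libraries. The summed fibroblast markers, mostly Pdgfra, were lower in the same libraries, as given above, while mean Col1a1 was not lower. The part of fibroblast markers in the binding protein values was not tested.

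**Figure D2:**
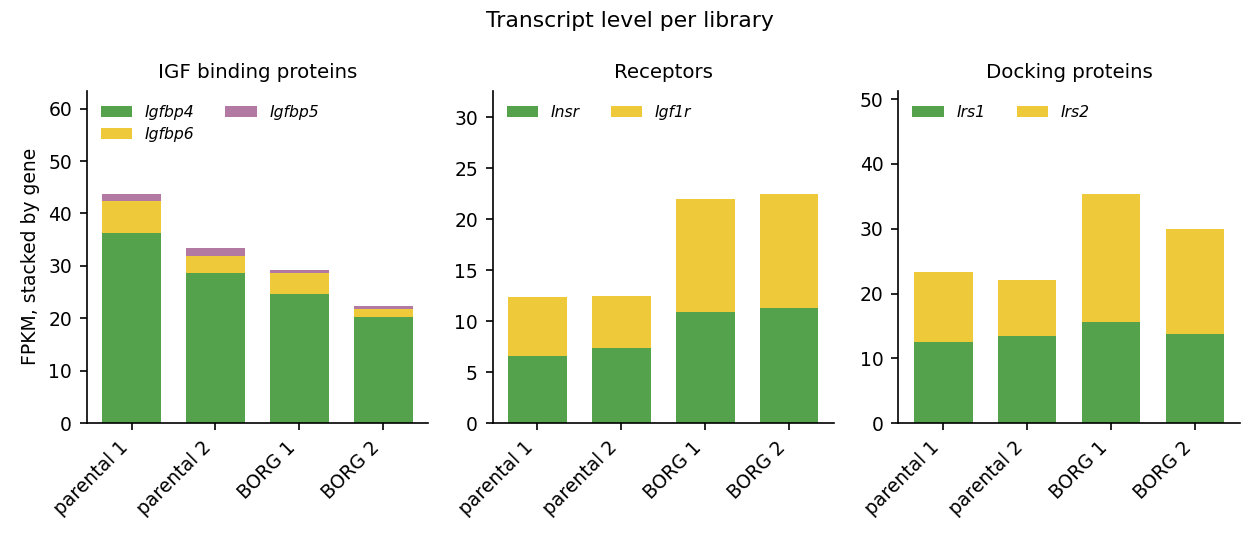
FPKM in each library, stacked by gene, for the tested binding proteins (left), the receptors (middle) and the docking proteins (right), each panel with its own axis from 0. Igfbp4 makes up most of the binding protein bar in each library, and the receptor bars of the BORG-expressing libraries reach 22.0 and 22.5 FPKM against 12.3 and 12.5 FPKM.

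With other ways of processing the calls of the binding proteins were often lost. In limma on log2(FPKM + 1) none of Igfbp4, Igfbp5 and Igfbp6 passed (adjusted p = 0.125, 0.0777 and 0.323). Igfbp6 also did not pass without parental replicate 1 (log2 fold change -0.72, adjusted p = 0.236) or without BORG-expressing replicate 2 (-1.01, adjusted p = 0.0815), nor Igfbp4 without parental replicate 1, parental replicate 2 or BORG-expressing replicate 1 (adjusted p = 0.106, 0.0952 and 0.101). With upper-quartile factors, another scaling, 3 members rose and 1 fell (22.3% and 19.3% of all genes), since Igfbp4 (adjusted p = 0.0557) and Igfbp6 (adjusted p = 0.0534) were lost.

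The promoter windows of the 3 binding protein genes that fell, with the same motifs in capitals, are these:
Igfbp4 (chr11:99040994-99041243, plus strand): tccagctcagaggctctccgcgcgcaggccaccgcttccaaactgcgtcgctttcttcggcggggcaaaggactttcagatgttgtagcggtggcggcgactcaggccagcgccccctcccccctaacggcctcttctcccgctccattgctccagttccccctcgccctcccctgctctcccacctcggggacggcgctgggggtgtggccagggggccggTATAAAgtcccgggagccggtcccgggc
Igfbp5 (chr1:72874866-72875115, minus strand): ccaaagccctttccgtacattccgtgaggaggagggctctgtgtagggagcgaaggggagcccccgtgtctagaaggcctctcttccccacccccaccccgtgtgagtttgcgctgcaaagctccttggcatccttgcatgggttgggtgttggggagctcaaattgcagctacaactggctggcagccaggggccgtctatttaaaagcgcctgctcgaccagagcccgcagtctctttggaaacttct
Igfbp6 (chr15:102143936-102144185, plus strand): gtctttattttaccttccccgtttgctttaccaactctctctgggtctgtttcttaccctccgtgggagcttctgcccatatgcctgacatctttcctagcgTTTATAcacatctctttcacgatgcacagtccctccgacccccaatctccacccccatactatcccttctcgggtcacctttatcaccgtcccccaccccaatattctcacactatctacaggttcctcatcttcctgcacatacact

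Igfbp4 has a TATA box that begins 28 bases before the start, in a window of 69.2% GC. None of the 5 motifs was found in the Igfbp5 window, of 58.8% GC. Igfbp6 has the letters of a TATA box on the opposite strand, 148 bases before the start, in a window of 49.6% GC. No GC box was found in these 3 windows, while both windows printed for the genes that rose hold at least 1. Insr, which also rose, has no window, and both printed windows of genes that rose have a higher GC content than these 3. With so few windows the contrast is a description and was not tested. The windows of Irs1, Igfbp2 and Igfbp7, which are not printed, hold GC boxes too. For Igfbp6, as for Igf1r and Irs2, the RefSeq start lies upstream of the GENCODE start.

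Within each group the order of levels per length could be read from FPKM. In parental cells it ran Igfbp4, Irs1, Irs2, Insr, Igf1r, Igfbp6 and Igfbp5, from 32.4 down to 1.49 FPKM, and only Igf1r and its lower neighbour Igfbp6 had overlapping values. In BORG-expressing cells Igfbp4 still led, at 22.5 FPKM, followed by Irs2 at 18.0 and Irs1 at 14.7 FPKM. The order of Irs2 over Irs1 held only in FPKM for BORG-expressing replicate 1, where Irs2 had 0.199 FPKM per CPM against 0.124 to 0.149 in the other libraries. Igf1r and Insr came next, both at 11.1 FPKM with overlapping values. Igfbp6 followed at 2.74 and Igfbp5 at 0.529 FPKM.

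**Figure D3:**
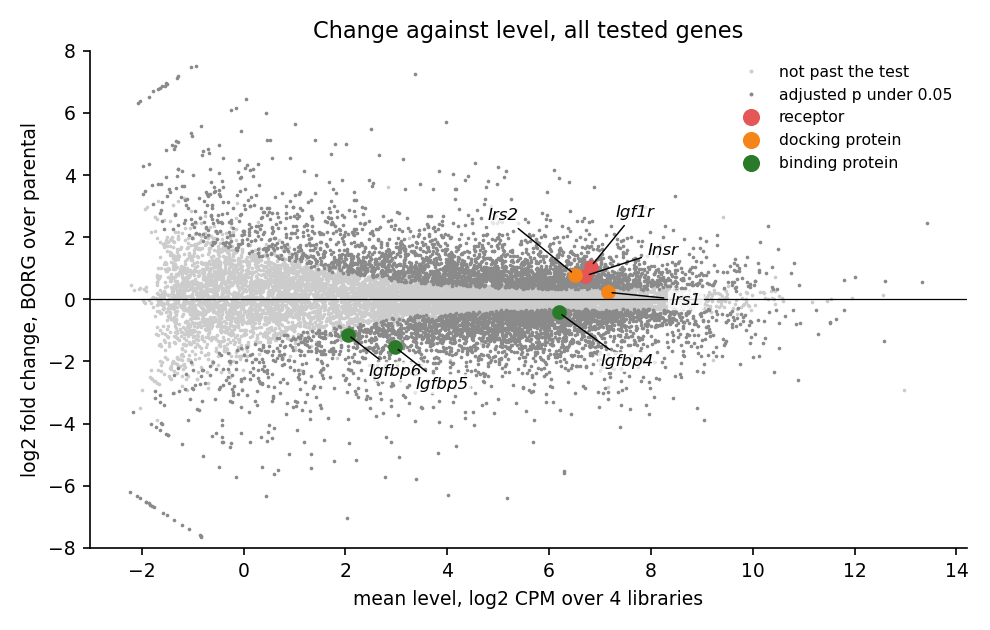
Log2 fold change (BORG over parental) against mean level (log2 CPM over 4 libraries) of all 15116 tested genes, with the 7 tested members coloured by role; 9 genes lie beyond the axis limits of 8. The receptors and docking proteins lie at 0.23 to 1.05 and the binding proteins at -0.42 to -1.53, within the cloud of grey points that passed or failed the test.

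Igf1r had the smallest p of the members. The 3 genes whose profile over the 4 libraries was most like it, by Euclidean distance of centred log2 CPM, were Adamts7, Ksr1 and Higd2a, at distances of 0.04, 0.04 and 0.05 log2 units. Ksr1, for example, had 14.7 and 12.9 CPM in parental libraries and 26.3 and 30.1 CPM in BORG-expressing libraries. This likeness over 4 libraries in 2 groups is a description only.

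Other genes of the insulin and IGF pathway were examined as a list of 68, of which 58 were tested. Of these, 19 rose and 12 fell, together 53.4%, against 41.1% of all tested genes, and 27 did not pass. The median log2 fold change was 0.18, and it stayed 0.18 with the 1 gene that had no BORG-expressing fragment set to its bound. With the replicate number as a block 13 rose and 6 fell, which is 32.8% against 27.7% of all genes. Without parental replicate 1 the numbers were 10 and 7, or 29.3% against 31.7% of all genes. In limma on log2(FPKM + 1) 6 rose and 6 fell of 51 tested, or 23.5% against 26.1% of all genes. The list's share was thus above that of all genes in the comparison as reported and below it in the last pair of fits. It was below also with a pseudocount of 0.1 (23.5% against 26.5%). In every other way of processing tried it was above, as in DESeq2 (44.1% against 35.2%).

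Among the ligands, Igf1 was expressed and rose, by a log2 fold change of 0.76 ± 0.14 (adjusted p = 0.00790), from 20.5 and 24.2 CPM in parental to 40.0 and 35.7 CPM in BORG-expressing libraries. That call was lost in limma on log2(FPKM + 1) (adjusted p = 0.119) and without parental replicate 1 (adjusted p = 0.0507), and Igf1os overlaps Igf1 on the opposite strand. Insl3, a relaxin family hormone gene, rose by 2.58 ± 0.45 (adjusted p = 0.00556) from 0.462 and 0.363 to 2.15 and 2.73 CPM, but it overlaps Jak3 on the same strand and its counts are uncertain. Insl6 did not pass (0.07 ± 0.31, adjusted p = 0.879). Igf2, Ins1, Ins2 and Insl5 were listed at 0 in all 4 libraries. The IGF2 receptor gene Igf2r, which clears IGF2 and sorts lysosomal enzymes, had 674 and 702 CPM in parental and 724 and 666 CPM in BORG-expressing libraries (0.01 ± 0.09, adjusted p = 0.921); it, Pappa, Pappa2, Foxo3 and Klf15 were named after their values were seen.

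Proteases that cleave binding proteins, and the stanniocalcins that inhibit PAPP-A, held large changes in both directions. Stc1 rose 16.3-fold, a log2 fold change of 4.02 ± 0.19 (adjusted p = 8.22e-05), from 1.93 and 2.05 CPM in parental to 35.6 and 29.7 CPM in BORG-expressing libraries. Stc2, its paralogue, fell by 4.71 ± 0.30 (adjusted p = 0.000177), from 34.4 and 35.9 CPM to 0.631 and 1.64 CPM, and was 26.2-fold higher in parental cells. Each group thus expressed mainly one of the paralogues, parental cells Stc2 and BORG-expressing cells Stc1. Pappa, the gene of PAPP-A, rose by 2.14 ± 0.38 (adjusted p = 0.00626), at low levels of 0.630 and 0.759 against 3.28 and 2.95 CPM. Htra1, a serine protease gene, fell by 0.94 ± 0.14 (adjusted p = 0.00286), from 36.1 and 32.7 to 18.8 and 17.3 CPM; Fgfr2 overlaps it on the opposite strand. Pappa2 was at 0.588 and 0.528 CPM against 0.253 and 0.0364 CPM and did not pass (adjusted p = 0.0852).

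**Figure D4:**
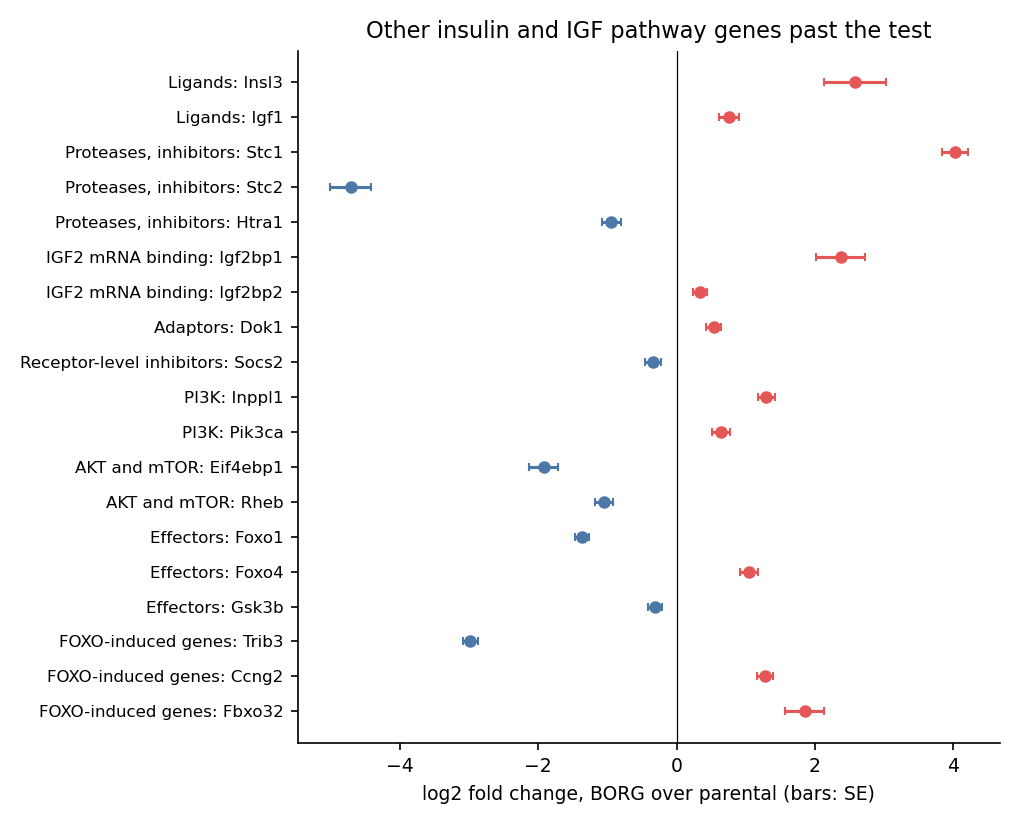
Log2 fold change (BORG over parental) with its SE for the named pathway genes that passed, up to 3 per role. Stc1 at 4.02 and Stc2 at -4.71 lie at opposite ends. Of the genes listed with PI3 kinase, Pik3ca lies at 0.65 and the lipid phosphatase gene Inppl1 at 1.30.

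Downstream of the docking proteins, 4 of 8 genes listed with PI3 kinase rose and none fell. By the same test 19.9% of all tested genes rose and 21.3% fell. Inppl1, a lipid phosphatase gene that dephosphorylates the product of PI3 kinase, rose by 1.30 ± 0.12 (adjusted p = 0.000522), from 79.9 and 70.6 CPM in parental to 176 and 193 CPM in BORG-expressing libraries. Pik3ca, the catalytic subunit gene, rose by 0.65 ± 0.13 (adjusted p = 0.0104), from 175 and 199 to 321 and 265 CPM. With limma on log2(FPKM + 1), Pik3ca was not past the threshold (adjusted p = 0.205), and it was lost also without parental replicate 1 (adjusted p = 0.0708).

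Of 14 AKT and mTOR genes 5 rose and 4 fell, where 19.9% of all tested genes rose and 21.3% fell. Eif4ebp1, the translation repressor that mTOR inactivates, fell by 1.92 ± 0.21 (adjusted p = 0.00103), from 244 and 189 to 46.6 and 67.0 CPM. Rheb, the small GTPase that activates mTOR, fell by 1.05 ± 0.13 (adjusted p = 0.00167).

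The FOXO genes diverged. Foxo1 fell by 1.37 ± 0.10 on the log2 scale (adjusted p = 0.000297), from 127 and 129 CPM in parental to 48.5 and 50.5 CPM in BORG-expressing libraries. Foxo4 rose by 1.05 ± 0.13 (adjusted p = 0.00163), from 15.3 and 15.0 to 31.9 and 30.8 CPM, and Foxo3 did not pass (0.11 ± 0.10, adjusted p = 0.409). Gsk3b, a kinase gene inhibited by AKT, fell by 0.31 ± 0.10 (adjusted p = 0.0432). Of 6 genes listed as FOXO-induced, 2 rose and 3 fell, in a comparison where 41.1% of all tested genes passed. Klf15 was among those that fell, from only 12 and 13 fragments in parental libraries to no fragment in either BORG-expressing library. The cyclin gene Ccng2 rose by 1.28 ± 0.12 (adjusted p = 0.000594) and Fbxo32, a ubiquitin ligase gene, by 1.85 ± 0.28 (adjusted p = 0.00342). The pseudokinase gene Trib3, which stress signalling induces, fell (-2.98 ± 0.11, adjusted p = 6.47e-05). Whether FOXO proteins induce the genes of this list in these cells was not tested.

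Adaptors and inhibitors that act at the receptor were examined beside the 41.1% of all genes that passed. Of 6 adaptor genes, Dok1 alone passed (0.54 ± 0.11, adjusted p = 0.0102), and of 6 tested inhibitor genes Socs2, a suppressor of cytokine signalling, alone passed (-0.34 ± 0.11, adjusted p = 0.0483). Of 3 genes for IGF2 mRNA-binding proteins, Igf2bp1 rose by 2.37 ± 0.36 (adjusted p = 0.00348), from 0.630 and 0.825 to 3.66 and 3.93 CPM, and Igf2bp2 rose by 0.34 ± 0.10 (adjusted p = 0.0393). The calls of Dok1, Socs2, Gsk3b and Igf2bp2 were lost in limma on log2(FPKM + 1) (adjusted p = 0.0963, 0.158, 0.230 and 0.270). Dok1 was also lost without parental replicate 1 or 2 (adjusted p = 0.0661 and 0.0713) and with the replicate block (0.0588), and Socs2, Gsk3b and Igf2bp2 were lost also when any 1 library was left out.

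The members called were also counted under 15 other ways of processing, each beside the share of all tested genes that passed in it. Of the fits to counts, DESeq2 called 6 members (35.2% of all genes), size factors of the RLE kind 6 (40.7%), upper-quartile factors 4 (41.6%) and quantile-normalized log2 CPM 6 (43.0%). With quantile normalization the 6 were not the same genes, since Irs1 passed (limma adjusted p = 0.0469) and Igfbp4 did not (limma adjusted p = 0.0511). Without a filter on low counts 6 members passed (28.1%), and 6 passed when a mean of 1 FPKM was required (44.5%). Limma on log2(FPKM + 1) called 2 members (26.1%), with a pseudocount of 0.1 it called 3 (26.5%), and without a filter it called 0 (5.73%). In that last fit Igf1r, Insr, Irs2 and Igfbp5, 4 of 9 members tested, had an unadjusted p under 0.05. Leaving out parental replicate 1 or 2 gave 4 (31.7%) and 5 (30.3%) members, and leaving out BORG-expressing replicate 1 or 2 gave 5 each time (37.0% and 38.2%). With the replicate number as a block 4 members passed (27.7%), and with the numbers crossed 7 (61.6%). Igf1r, Insr and Irs2 were thus called more often than Igfbp4 and Igfbp6.

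**Figure D5:**
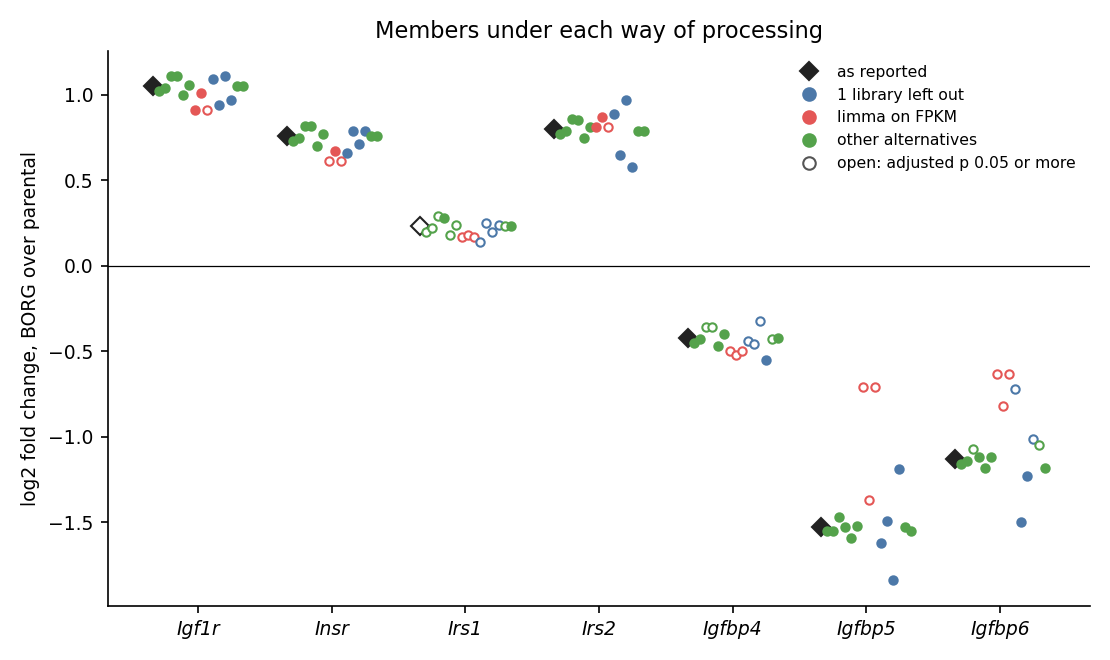
Log2 fold change (BORG over parental) of the 7 tested members as reported (diamond) and under 15 other ways of processing (circles), filled where the adjusted p was under 0.05. Signs did not change for any of the 7, from 0.91 to 1.11 for Igf1r and from -1.50 to -0.63 for Igfbp6, and the open circles gather on Irs1, Igfbp4 and Igfbp6.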

How the data were processed

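Total RNA of 4 libraries was compared (2 parental, 2 BORG-expressing). The submitters' processing notes list Cufflinks, TopHat, Trim Galore and FastQC without versions or order, and builds GRCm38, mm10 and mm8 are listed. The authors deposited estimated counts of fragments per gene and library (2.83% not whole numbers) and FPKM, per the file headers; 2 further columns of scaled fragments were not used. The sources used here give neither annotation release nor strand setting, and reads of overlapping genes may not be separated; the library kit was stranded, per the labels' protocols.

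The condition Empty was read as parental, and replicates 0 and 1 as 1 and 2. Identifiers were matched without version to GENCODE M21 symbols (48051 of 48432), and coordinates are GRCm38. Expected counts were rounded. The test was the two-sided quasi-likelihood one of edgeR 4.0.16 (R 4.3.3) after TMM scaling and filterByExpr, with Benjamini-Hochberg adjustment over the 15116 genes kept and a threshold of 0.05. SE is the log2 fold change over the square root of F. CPM use TMM factors. Alternatives used DESeq2 1.42.0 and limma 3.58.1 (trend, robust) on log2(FPKM + 1) and log2(FPKM + 0.1), for genes averaging at least 1 FPKM, where fold changes are on that scale and understate low genes. Fits were tested on simulated data. The 4 libraries held 7900767 to 30322679 assigned fragments. Replicates were not copies (chi-square per degree of freedom 80.3 and 21.3). The design text states biological duplicates without saying whether cultures were separate, and the p-values cover only how these libraries vary.

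All 10 members are named. For other pathway genes, up to 3 per role with the smallest p among those that passed were named, plus the ligands, except for genes that are not reported here; other genes named with values were chosen after these were seen. Members and lists were chosen with earlier results of these data known.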

Additional observations from a re-analysis of the deposited data

How the results depend on the processing

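Over the 15 alternatives, Igf1r kept its call in 14, Insr in 13, Irs2 in 14, Igfbp5 in 12, Igfbp6 in 8 and Igfbp4 in 6. Irs1 passed in 2, with quantile-normalized log2 CPM (adjusted p = 0.0469) and in a crossed block (0.00153). No tested member changed sign. The count of members that passed was 6 and became 2 in limma on log2(FPKM + 1), 3 with a pseudocount of 0.1 and 0 without a filter on low FPKM (4 at an unadjusted p under 0.05; edgeR without a filter called 6). Leaving out 1 library gave 4 to 5.

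For pathway genes the count was 31 (53.4% against 41.1% of all genes), and 12, 12 and 8 in those FPKM fits (23.5%, 23.5% and 12.9% against 26.1%, 26.5% and 5.73%), 19 with the replicate block (32.8% against 27.7%), and 17 (29.3% against 31.7%) to 27 (45.8% against 38.2%) with 1 library left out. Over all genes 6220 passed, against 3321, 3379 and 1425 in the FPKM fits, and 4743 to 5905 with 1 library left out. The cause was not tested. Among the members and pathway genes refitted here, Insl6 and Igf2r, which had no call in any fit, changed sign. Insl6 was at -0.06 with quantile normalization and from -0.20 (without BORG-expressing replicate 2) to 0.24 with 1 library left out, and Igf2r at -0.01 in DESeq2, -0.04 without a filter, -0.05 without BORG-expressing replicate 1, and from -0.07 (without parental replicate 1) to 0.07 with 1 library left out.

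Same-numbered libraries deviated in opposite directions from their group means (correlation -0.441), and no label ties them, so they share only a number. With the replicate block 4190 genes and 4 members passed, Igfbp4 (adjusted p = 0.127) and Igfbp6 (0.0677) being lost. A crossed block, added after seeing the data, called 9319 genes and 7 members. The difference in summed IGFBP FPKM was -12.8 and ran from -17.9 to -7.58 with 1 library left out; that of the Insr share was -5.99 percentage points and ran from -8.79 to -3.19. In BORG-expressing replicate 1, the shallowest library, Igfbp6 had 22 fragments.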
